A study of Mus musculus with 16 samples.

Results

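The DNA replication and mitosis genes described here are 42 mouse genes whose transcripts accompany cell division, 23 tied to S phase and 19 to M phase. They were taken by symbol from a list of names, and all 42 were found among the 20325 gene names of the deposited RNA tables. The S phase members load and fire the replicative helicase, copy DNA, supply nucleotides or drive entry into S phase. The M phase members encode the mitotic cyclins and their kinase, other mitotic kinases, the spindle checkpoint, chromosome and centromere proteins, and spindle motors.

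Before S phase, Cdc6 and Cdt1 load the Mcm2 to Mcm7 helicase at origins, and cyclin-dependent kinases then let it fire with Mcm10 and the GINS complex. Many genes of this step are switched on late in G1 by E2F factors once RB-family proteins are inactivated. Genes for mitosis peak later, in G2 and M, and many carry a cell cycle homology region that MuvB complexes bind, with CCAAT boxes for the factor NF-Y and further activation by FoxM1 and B-Myb. Mouse embryonic stem cells (ESC) divide fast, with a short G1 phase, whereas cultured embryonic fibroblasts (MEF) divide more slowly.

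The study asked how c-Jun, a subunit of the AP-1 transcription factor, affects ESC and the reprogramming of MEF. RNA was sequenced in 13 libraries, 1 per group, and 3 further samples of the 16 are chromatin samples, not used here. The 3 ESC libraries came from OG2 ESC at passage 5, and OG2 cells carry an Oct4-GFP reporter transgene. A wild-type library (WT ESC) stood beside libraries from a line with a doxycycline-inducible c-Jun (TetOn), sampled at 36 h, either with doxycycline (induced ESC) or without it (uninduced ESC). The 6 MEF libraries came from OG2 MEF at passage 2, either wild-type (WT MEF) or overexpressing Oct4, Jdp2, c-Jun, c-JunDN or DR. The 4 KSM libraries came from the same kind of MEF, given the reprogramming factors Klf4, Sox2 and c-Myc (KSM) together with Jdp2, c-JunDN, Oct4 or DR and sampled on day 3. The DR libraries serve as controls here, and the labels do not say what DR or DN stands for. All cells share the OG2 reporter and a mixed 129SVJ, C57B6 and CBA background. The labels do not say how many animals, clones or cultures a library came from.

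Depth ran from 1896522 expected counts (MEF Oct4) to 3440958 (KSM with Oct4), except for WT ESC with 12173140 and WT MEF with 21415028. The introduced genes were higher in the libraries labelled for them than in the control libraries. Jun was at 2175 counts per 1000000 (CPM) in induced ESC against 23.2 in uninduced ESC. It was at 12881 in MEF c-Jun and 4202 in MEF c-JunDN against 94.4 in MEF DR, but at only 378 in KSM with c-JunDN against 73.0 in KSM with DR. Jdp2 was at 7740 CPM in MEF Jdp2 against 82.0 in MEF DR, and at only 403 in KSM with Jdp2 against 3.2 in KSM with DR. Of 8 ESC markers, only Pou5f1, the Oct4 gene, and Zfp42 reached 5 CPM in a MEF or KSM library. Pou5f1 was at 10382 CPM in MEF Oct4 and 1860 in KSM with Oct4, but also at 9.4 in KSM with c-JunDN and 11.5 in KSM with Jdp2. Zfp42 was at 6.4 CPM in KSM with Oct4. All 10 fibroblast markers were at 5 CPM or more in every MEF library.

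Levels are given in CPM, the rounded expected counts of a gene per 1000000 counts after TMM scaling, and changes as log2 ratios of CPM plus 1. A gene was measured in a comparison when at least 1 of both libraries held 5 CPM, and called higher or lower when that ratio passed 2-fold. With 1 library per group there is no replicate check of any difference, no p-value is given, and the 95% intervals beside fold changes (ratios of CPM) cover counting error only. Levels of different genes are compared only in TPM, a share of transcripts that is scaled to transcript length.

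Start regions were looked at first, because S phase and M phase members are known to be controlled through different promoter elements. RefSeq windows on GRCm38.p6, from 250 bases before to 50 bases after the annotated start, were matched by symbol for 18 of 23 S phase and 14 of 19 M phase members, without Mcm4, Gins1, Gins2, Pole, Ccne2, Ccna2, Foxm1, Aurkb, Kif20a and Tpx2. Of these, 4 windows are shown for the contrast. In the S phase windows of Mcm3 (chr1:20820263-20820562, minus strand) and Mcm6 (chr1:128359656-128359955, minus strand), which encode subunits of the replicative helicase, capitals mark, on either strand, the E2F word TTCCCGC and its relatives spelled TTGGCGC, or spelled TTGCCGC, or spelled TTCGCGC. In the M phase windows of Bub1b (chr2:118597961-118598260, plus strand), a spindle checkpoint protein, and Ccnb1 (chr13:100786437-100786736, minus strand), cyclin B1, capitals mark the cell cycle homology words TTTGAA or TTTAAA and the word CCAAT on either strand.
Mcm3: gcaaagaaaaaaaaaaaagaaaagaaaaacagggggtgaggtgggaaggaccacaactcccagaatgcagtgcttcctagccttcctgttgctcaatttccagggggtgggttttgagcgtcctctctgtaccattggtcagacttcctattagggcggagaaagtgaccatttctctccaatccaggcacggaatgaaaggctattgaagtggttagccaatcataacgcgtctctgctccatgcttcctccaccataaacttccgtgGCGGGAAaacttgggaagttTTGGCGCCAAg
Mcm6: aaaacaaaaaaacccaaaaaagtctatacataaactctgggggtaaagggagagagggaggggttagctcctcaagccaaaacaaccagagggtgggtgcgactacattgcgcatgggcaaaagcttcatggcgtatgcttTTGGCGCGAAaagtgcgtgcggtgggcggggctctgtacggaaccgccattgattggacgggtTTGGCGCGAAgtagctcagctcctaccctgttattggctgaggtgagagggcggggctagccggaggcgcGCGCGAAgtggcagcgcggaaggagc
Bub1b: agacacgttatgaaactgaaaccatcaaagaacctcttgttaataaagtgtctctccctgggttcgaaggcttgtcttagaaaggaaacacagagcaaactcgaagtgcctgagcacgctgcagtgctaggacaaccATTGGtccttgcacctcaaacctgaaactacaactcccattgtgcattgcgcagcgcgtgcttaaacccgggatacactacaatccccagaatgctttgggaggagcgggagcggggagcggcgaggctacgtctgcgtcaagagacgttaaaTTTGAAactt
Ccnb1: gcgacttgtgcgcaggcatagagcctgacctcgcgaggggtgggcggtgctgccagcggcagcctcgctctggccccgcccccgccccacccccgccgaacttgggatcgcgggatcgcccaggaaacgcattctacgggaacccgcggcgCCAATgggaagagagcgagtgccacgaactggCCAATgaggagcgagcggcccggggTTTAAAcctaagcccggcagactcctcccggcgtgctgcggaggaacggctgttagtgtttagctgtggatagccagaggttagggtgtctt

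Mcm3 held 3 E2F words, including a pair of overlapping words read on opposite strands just before the end of the window, and Mcm6 held 5. The words of the other class are left in lower case, namely 3 CCAAT words in Mcm3, 2 in Mcm6 and 1 E2F word in Ccnb1 that overlaps a CCAAT word. Shares are given per matched gene, since Mcm7 has 2 windows and every other matched member 1. An E2F word stood in a window of 12 of the 18 S phase genes (66.7%) and of 3 of the 14 M phase genes (21.4%). Among 8104 genes measured in the ESC comparison that have a window, 20.8% of genes held one, and 10.9% did among all 27025 genes of the sequence table. The cell cycle homology words gave the opposite split. They stood in 13 of 14 M phase genes (92.9%) and in 5 of 18 S phase genes (27.8%), against 21.7% of measured genes and 30.6% of all genes. CCAAT stood in 66.7% of S phase and 92.9% of M phase genes, against 43.7% of measured genes. A homology word together with CCAAT stood in 12 of 14 M phase genes (85.7%), 3 of 18 S phase genes (16.7%), 9.0% of measured genes and 12.2% of all genes. The M phase exceptions were Birc5, which held no CCAAT, and Bub1, which held neither TTTGAA nor TTTAAA. Other spellings of the homology word were not searched. The AP-1 word TGANTCA was in the window of no matched member and in 5.8% of measured genes. At that share few members would hold it in any case, and no other AP-1 word was searched. Of the 32 E2F words in member windows, 4 overlapped a CCAAT word. A match describes letters in these windows and is not a binding site.

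**Figure D1:**
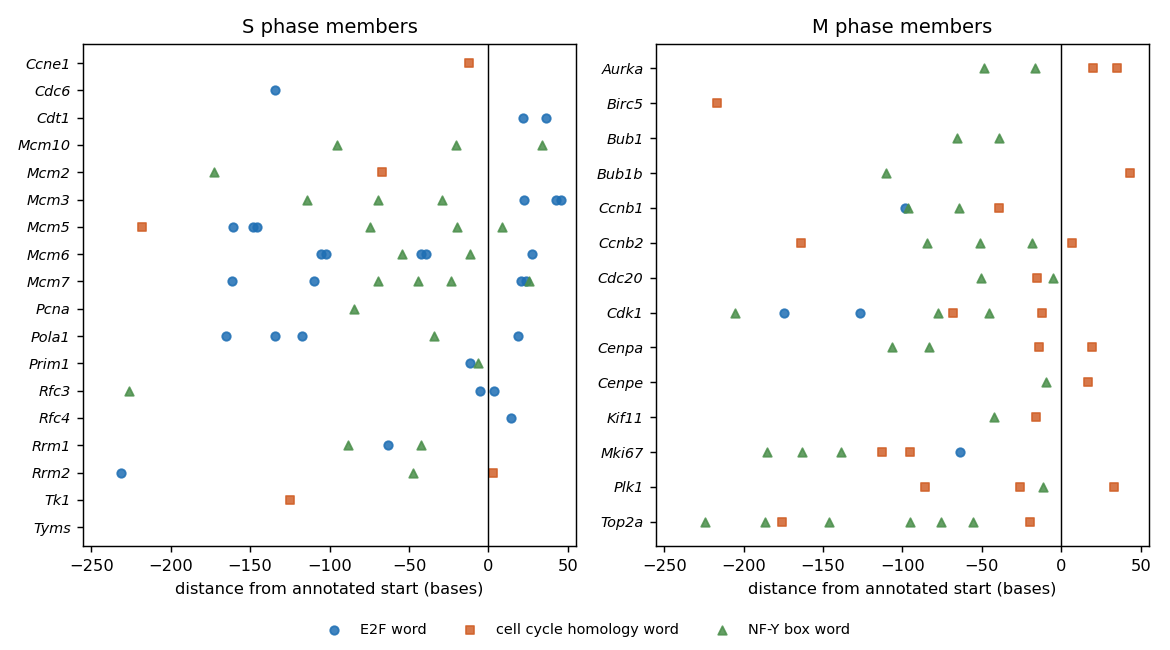
Position of each word in the start regions of the 18 S phase (left) and 14 M phase (right) members with a RefSeq window, as distance in bases from the annotated start at 0. Circles are E2F words, squares cell cycle homology words and triangles CCAAT words. E2F words appear in 12 rows on the left and 3 on the right, and homology words in 5 and 13.

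Positions differed between the words as well. In M phase windows the homology words had a median distance of -16.0 bases from the start and the CCAAT words one of -75.5 bases, so CCAAT tended to lie upstream. In S phase windows the E2F words had a median of -41.0 bases and ranged from -231.5 to 45.5 bases.

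Across the 13 libraries the members followed cell type, high in ESC, intermediate on day 3 of KSM and low in MEF. In both ESC libraries without induced c-Jun, 21 of 23 S phase and 18 of 19 M phase members lay above every MEF library, against 30.5% of all genes, with Rrm1, Tk1 and Foxm1 as the exceptions. WT MEF against WT ESC, 21 of 23 S phase and 18 of 19 M phase members were called lower and none higher, with medians of -2.45 and -2.26, where 30.2% of all genes were called lower and 23.9% higher. In all 4 KSM libraries, 20 of 23 S phase and 15 of 19 M phase members lay above every MEF library, against 21.4% of all genes. The exceptions there were Gins2, Rrm1 and Tk1 in S phase and Cdk1, Foxm1, Kif20a and Tpx2 in M phase. These ESC libraries lay above every KSM library for 19 of 23 S phase and 16 of 19 M phase members, against 31.2% of all genes. The induced ESC library lay above every MEF library for 18 of 23 S phase and 17 of 19 M phase members, against 27.7% of all genes. These cell types also differ in depth and culture, and the WT libraries were sequenced deeper, so these orders are descriptions.

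**Figure D2:**
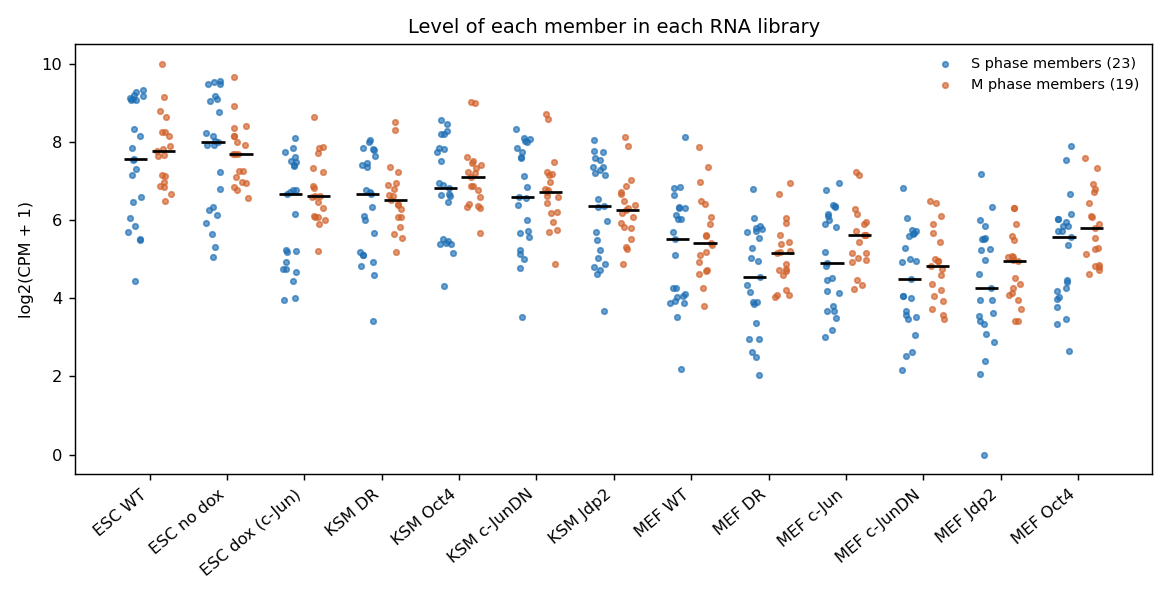
Level of each member in each of the 13 RNA libraries, as log2 of CPM plus 1 on the vertical axis. Blue points are the 23 S phase members, orange points the 19 M phase members and black bars their medians. Both sets are highest in WT and uninduced ESC and lowest in MEF libraries, and the point at 0 is Gins1 in MEF Jdp2.

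Mcm2, a helicase subunit, stood at 617 CPM in WT ESC, 756 in uninduced ESC and 181 in induced ESC. In KSM it was at 197 (DR), 164 (Jdp2), 227 (Oct4) and 229 (c-JunDN), and over the 6 MEF libraries it ran from 37.5 through a median of 56.8 to 77.8. The 3 cell types did not overlap once the induced ESC library is set aside, and that library fell within the KSM range. Its partner Mcm5 was at 576, 740 and 273 CPM in WT, uninduced and induced ESC, between 186 and 297 in KSM and between 23.5 and 63.9 in MEF.

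Pcna, the sliding clamp of the polymerases, was at 537 CPM in WT ESC, 583 in uninduced ESC and 179 in induced ESC, with 266 to 352 in KSM and 64.98 to 101 in MEF. In TPM it was the most abundant S phase member in every library other than WT MEF, where Rrm1 was, and MEF Oct4, where Rrm2 was. Rrm2, the regulated subunit of ribonucleotide reductase, was at 535, 437 and 109 CPM in WT, uninduced and induced ESC. In KSM it was at 231 (DR), 193 (Jdp2), 254 (c-JunDN) and 375 (Oct4). MEF libraries held 45.9 to 99.5 CPM of Rrm2 except MEF Oct4 with 186, so that MEF Oct4 lay above induced ESC. Ccne1, cyclin E1, showed smaller gaps. It was at 142, 255 and 108 CPM in WT, uninduced and induced ESC, 100.2 to 142 in KSM and 29.5 to 56.5 in MEF.

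Among M phase members, Ccnb1 was at 446 CPM in WT ESC, 481 in uninduced ESC and 232 in induced ESC, 105 to 194 in KSM and 31.3 to 67.7 in MEF. Cdk1, the kinase cyclin B activates, was at 202, 205 and 116 CPM in the ESC libraries in the same order. In KSM with Jdp2 it was at 82.4 CPM, just below the 86.3 of MEF Oct4, and the other 3 KSM libraries held 119 to 162. Top2a, the topoisomerase that untangles chromosomes, was at 1029 CPM in WT ESC, 813 in uninduced and 399 in induced ESC, 278 to 517 in KSM and 78.7 to 233 in MEF. Mki67, which encodes the Ki-67 antigen, differed between the ESC controls, at 571 CPM in WT and 256 in uninduced ESC, and was at 149 in induced ESC. In KSM it was at 318 (DR), 237 (Jdp2), 381 (c-JunDN) and 512 (Oct4) CPM. Plk1, polo-like kinase 1, was at 143, 206 and 112 CPM in WT, uninduced and induced ESC, 66.8 to 117 in KSM and 16.6 to 45.3 in MEF.

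Summed per length, the S phase members held 4639.9 TPM in WT ESC and 4718 in uninduced ESC, and 2011 in induced ESC. KSM libraries held 2065 (DR), 2045 (Jdp2), 2496 (c-JunDN) and 2654 (Oct4). The MEF libraries held 971 (WT), 627 (DR), 647 (Jdp2), 599.7 (c-JunDN), 863 (c-Jun) and 1172 (Oct4). The M phase sums were 2841 in WT ESC, 2676 in uninduced ESC and 1830.0 in induced ESC, 1123 to 1776 in KSM and 416 to 1072 in MEF. The ratio of the M phase to the S phase sum was 0.612 in WT ESC, 0.567 in uninduced ESC and 0.91 in induced ESC. It ran from 0.549 to 0.669 in KSM and from 0.644 to 0.809 in 5 MEF libraries. MEF Oct4 had 0.914, and its TPM was computed by the authors on another gene annotation.

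**Figure D3:**
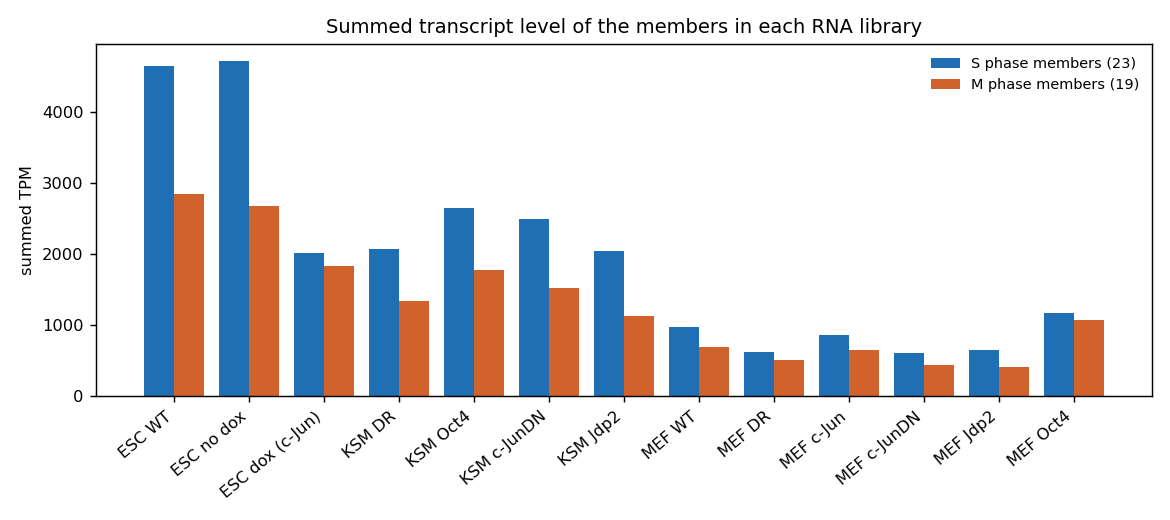
Summed TPM of the 23 S phase (blue) and 19 M phase (orange) members in each RNA library, 1 library per group and so without error bars. S phase sums exceed M phase sums in every library, and the gap is smallest relative to the sum in induced ESC and MEF Oct4.

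Of the 8 matched comparisons, the largest shift of the members was a fall in induced ESC. Against uninduced ESC, 21 of 23 S phase and 9 of 19 M phase members were called lower and none higher, where 19.7% of all 11255 measured genes were called lower and 21.3% higher. The median change was -1.45 for S phase, -0.95 for M phase and -0.09 for all measured genes. The counting interval lay below no change for 23 of 23 S phase and 18 of 19 M phase members, and for 4241 of the 11255 measured genes. In a bulk library, fewer dividing cells and less RNA of these genes per cell cannot be told apart. No control library received doxycycline without the c-Jun transgene, so the drug and c-Jun cannot be told apart either.

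**Figure D4:**
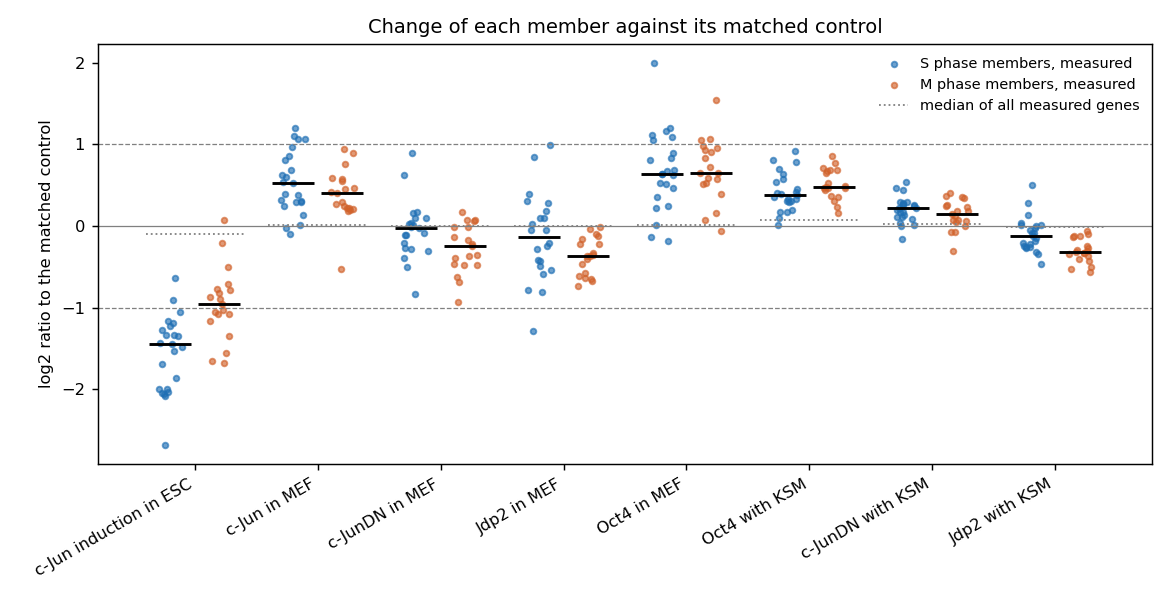
Change of each measured member against its matched control in 8 comparisons, as log2 ratio on the vertical axis. Blue points are S phase and orange points M phase members, black bars their medians, dotted lines the median of all measured genes and dashed lines the 2-fold thresholds. The medians are -1.45 and -0.95 in the ESC comparison, and those of the other comparisons lie between -0.36 and 0.65.

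All 8 licensing genes were called lower in induced ESC, with log2 changes from -2.08 to -1.18. Mcm3 went from 722 to 169.7 CPM (4.25-fold lower, interval 3.83 to 4.73) and Mcm2 from 756 to 181 CPM (4.17-fold lower, 3.76 to 4.62). Mcm10, which helps activate the loaded helicase, had the largest change of any member, from 242 to 36.9 CPM (6.54-fold lower, 5.27 to 8.19). The GINS subunits Gins1 and Gins2 changed less, by -1.34 and -1.45. Of 6 polymerase and clamp genes 5 were called lower, and the clamp loader subunit Rfc3 changed by -0.90. Of 4 nucleotide supply genes 3 were called lower, with Rrm2 at -1.99, whereas Rrm1, the large reductase subunit, changed by -0.64. Both E cyclins were called lower, Ccne1 by -1.23 and Ccne2 by -1.05.

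Fewer of the M phase members passed 2-fold. The spindle checkpoint protein Bub1b went from 283 to 87.8 CPM (3.23-fold lower, 2.77 to 3.77), Aurkb, the kinase of the chromosomal passenger complex, from 115 to 35.8 CPM (3.21-fold lower, 2.53 to 4.11) and Ccna2, cyclin A2, from 282 to 95.1 CPM (2.96-fold lower, 2.55 to 3.44). Foxm1, the transcription factor of many M phase genes, was not lower, at 98.0 against 93.4 CPM (0.07). Tpx2, a spindle assembly factor, changed by -0.21 and Cdc20, an activator of the anaphase-promoting complex, by -0.50. Among the 5 chromosome and centromere genes only Top2a was called, at -1.03, and the rest lay between -0.95 and -0.71.

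S phase members with an E2F word in the window did not stand far from those without. Their median change was -1.67 over 12 genes, against -1.51 over 6 genes without one, and the ranges overlapped, from -2.08 to -0.64 and from -2.68 to -1.23. Mcm10, with the largest change, held none of the E2F words in its window. That window ends in TTGGCG, however, the first letters of the word TTGGCGC, and a word running past the end would be missed. The group without a word is small, and whether these words bear on the changes was not tested.

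The ESC result was set against 2 other controls. Induced against WT ESC, 18 of 23 S phase and 10 of 19 M phase members were called lower, with medians of -1.43 and -1.02 (23.1% of all genes lower and 14.6% higher). Uninduced against WT ESC, no S phase member was called in either direction and the medians were 0.12 and 0.02 (18.3% of all genes lower and 6.34% higher). The M phase members Cenpe (-1.49) and Mki67 (-1.15) were called lower there. Of all genes measured at 5 CPM or more in these libraries, 45.3% lay lower in induced ESC than in both other ESC libraries, as did 23 of 23 S phase and 17 of 19 M phase members, with Foxm1 and Cdc20 as the exceptions. Scaling moves these medians together with all genes. The median of all genes rises by 0.17 with total-count scaling and by 0.39 on the TPM scale, and 16 members instead of 30 pass 2-fold on the TPM scale. The share of all genes that pass on that scale was not computed. Relative to all genes, the S phase median was -1.36, -1.37 and -1.38 with TMM, total-count and TPM scaling, and the M phase median was -0.86 with each.

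Further genes of these pathways were lower too. Of 44 other replication genes 29 were called lower and none higher (median -1.23), led by Dut, which removes dUTP (362 to 64.0 CPM), Chaf1b, a chromatin assembly subunit (124 to 23.04 CPM), and Orc5, an origin recognition subunit (124 to 25.2 CPM). Of 58 other mitosis genes measured, 27 were called lower and none higher (median -0.97), led by Mybl2, which encodes B-Myb (972 to 154 CPM), Fbxo5, an inhibitor of the anaphase-promoting complex (141 to 22.7 CPM), and Cenpm (57.3 to 10.6 CPM). Of 18 E2F, RB and MuvB genes 6 were called lower and 1 higher. The MuvB subunit Lin52 (15.3 to 2.6 CPM) and the activator E2f2 (11.9 to 2.9 CPM) were lower, and the repressor E2f8 was higher (61.3 to 247 CPM). Of 14 measured G1 regulators 5 were called higher and 4 lower, where 21.3% and 19.7% of all genes were. Ccnd1, cyclin D1, was lower (298 to 24.9 CPM), and the kinase inhibitor genes Cdkn1a (155 to 469 CPM) and Cdkn2a (15.8 to 153 CPM) were higher, whereas Ccnd2 (12.4 to 21.2 CPM) was not called.

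Markers of cell identity moved in the same libraries. The summed CPM of 8 ESC markers went from 6863 in uninduced to 1235 in induced ESC. That of 10 fibroblast markers went from 50.9 to 1097, of which Col1a1 gave 508 and Col5a1 416. The median of the 10 in induced ESC was 11.3 CPM, with 6 of 10 at 5 CPM or more and Lum at 0. WT ESC, however, held a fibroblast marker sum of 1585 with high member levels. Sums went from 23.7 to 593 CPM for 8 keratinocyte markers, with Sfn at 462 and Trp63 and Dsg3 at 0, from 15.8 to 279 CPM for 8 skeletal muscle markers, with Des at 228 and Myod1, Myog, Myh3 and Myh8 at 0, and from 12.9 to 124 CPM for 10 macrophage markers, with 6 of them at 0. The sum of 7 endothelial markers went the other way, from 129.5 to 53.4 CPM, with Cdh5, Tie1 and Emcn at 0 in both libraries. Their part in the fall of the members was not tested.

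In MEF, c-Jun overexpression went with higher rather than lower levels. Against MEF DR, 4 of 23 S phase members were called higher and none lower, where 8.22% of 11284 measured genes were called higher and 9.7% lower. No M phase member was called. The medians were 0.53 for S phase, 0.40 for M phase and 0.02 for all measured genes. Above 0 lay 21 of 23 S phase and 18 of 19 M phase members, and 5796 of all 11284 measured genes. All 4 MEF comparisons share the MEF DR library, and anything peculiar to that library enters each of them.

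The 4 called genes were Prim1, the primase subunit (6.7 to 16.7 CPM, 2.49-fold higher, interval 1.26 to 5.18), Mcm6 (56.2 to 122 CPM, 2.17-fold, 1.72 to 2.76), Pole, the leading strand polymerase (13.4 to 29.1 CPM, 2.17-fold, 1.33 to 3.61), and Mcm10 (5.2 to 11.8 CPM, 2.3-fold, 1.04 to 5.43). Mcm6 rests on 227 against 109 counts, and Mcm10 on 22 against 10. The M phase members furthest from 0 were Bub1 (16.0 to 31.7 CPM, 1.99-fold, 1.26 to 3.17), Aurka (16.0 to 30.7 CPM, 1.92-fold, 1.22 to 3.07) and Bub1b (24.8 to 42.5 CPM, 1.72-fold, 1.18 to 2.51), which encode a checkpoint kinase, Aurora A and the related checkpoint protein. Cyclin B2, Ccnb2, went the other way, at 19.4 against 28.4 CPM (-0.53). Of 44 other replication genes 6 were called higher, among them Gmnn, the inhibitor of licensing (2.6 to 12.4 CPM), and Rpa3 (6.2 to 14.5 CPM). Of 55 other mitosis genes measured, none was called higher and Ckap2 was called lower (69.6 to 30.1 CPM). Ccnd1 was lower with c-Jun in MEF too, at 125 against 305 CPM.

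Against WT MEF in place of MEF DR, the medians for c-Jun were -0.29 and -0.13, no member was called higher (11.4% of all genes were), and Rrm1 and Pola1 were called lower (13.5% of all genes were). Fibroblast markers summed to 17272 CPM in MEF c-Jun and 37823 in MEF DR, and macrophage markers to 143 and 95.4 CPM, of which Csf1r gave 78.6 and 4.6. Their part in the result was not tested.

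With c-JunDN in MEF the members lay near the DR level. None of the 21 measured S phase or 19 measured M phase members was called, where 3.28% of 11175 genes were called higher and 2.85% lower. Gins1 (3.5 against 3.1 CPM) and Rfc4 (4.8 against 4.6 CPM) were under 5 CPM in both libraries. The medians were -0.03 and -0.24, against -0.003 for all measured genes. In S phase the largest changes were Mcm10 at 10.4 against 5.2 CPM (0.89), Cdt1 at 7.4 against 13.9 CPM (-0.83) and Prim1 at 10.9 against 6.7 CPM (0.62), each with a counting interval that includes no change. In M phase they were Ccnb2 at 14.3 against 28.4 CPM (1.98-fold lower, 1.26 to 3.15), the spindle motor Kif11 at 15.6 against 25.8 CPM (1.65-fold, 1.05 to 2.61) and Aurka at 10.0 against 16.0 CPM (1.6-fold, 0.9 to 2.87). Macrophage markers at 5 CPM or more numbered 9 of 10 here and 3 of 10 in MEF DR, with sums of 200.3 and 95.4 CPM, and their part was not tested. Against WT MEF, 11 of 22 measured S phase and 6 of 19 M phase members were called lower (11.3% of all genes) and none higher (10.6%).

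With Jdp2, an AP-1 family member, all 19 M phase members lay below the MEF DR level but none passed 2-fold. Of all 11232 measured genes, 5586 lay below 0. The counting interval lay below no change for 4 of the 19, and for 1947 of all measured genes. The M phase median was -0.36, against -0.13 for the 22 measured S phase members and 0.004 for all measured genes. The lowest were Bub1b (24.8 to 14.5 CPM, 1.71-fold lower, 1.05 to 2.86), Aurka (16.0 to 9.6 CPM, 1.66-fold, 0.9 to 3.15) and Mki67 (123 to 78.1 CPM, 1.57-fold, 1.27 to 1.94). Ccne2, cyclin E2, was the single member called, from 9.3 to 3.2 CPM on 18 and 6 counts (2.89-fold lower, 1.1 to 8.9), where 6.38% of 11232 genes were called lower and 5.98% higher. Mcm10 (11.2 against 5.2 CPM, 0.99) and Rfc4 (9.1 against 4.6 CPM, 0.84) lay on the other side. Gins1 had 0 counts with Jdp2 against 6 with DR, and was not measured at this depth, where 3 counts correspond to 1.61 CPM. Of 44 other replication genes 1 was called, the origin kinase gene Cdc7 (14.4 to 3.2 CPM), and of 56 other mitosis genes 4 were called lower, led by Kif14 (15.5 to 5.9 CPM), Fbxo5 (9.8 to 3.7 CPM) and Melk (13.4 to 5.4 CPM). Against WT MEF, 10 of 22 measured S phase and 8 of 19 M phase members were called lower (14.4% of all genes) and none higher (12.2%).

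With Oct4 in MEF, 6 of 23 S phase and 3 of 19 M phase members were called higher and none lower, where 11.6% of 11194 genes were called higher and 10.2% lower. The medians were 0.63 and 0.65, against 0.01 for all measured genes. Above 0 lay 21 of 23 S phase and 18 of 19 M phase members, and 5680 of all 11194 measured genes. Of the 4 nucleotide supply genes 3 were called. Rrm2 went from 45.9 to 186 CPM (4.05-fold higher, 3.2 to 5.17), Tk1, thymidine kinase, from 22.2 to 52.2 CPM (2.35-fold, 1.63 to 3.45) and Rrm1 from 109.8 to 238 CPM (2.17-fold, 1.84 to 2.56), whereas Tyms, thymidylate synthase, stood at 46.9 against 51.6 CPM but at 64.95 against 28.3 TPM, so its direction turned with the scale. Mcm10 went from 5.2 to 12.8 CPM (2.48-fold, 1.14 to 5.81), Gins2 from 19.1 to 40.5 CPM and Prim1 from 6.7 to 15.5 CPM. None of the 8 licensing genes was called, with a median of 0.41.

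In M phase, Foxm1 went from 35.1 to 104 CPM (2.98-fold higher, 2.25 to 3.98), Cenpa, the centromeric histone H3 variant, from 17.5 to 37.8 CPM (2.16-fold, 1.41 to 3.35) and Aurka from 16.0 to 34.1 CPM (2.13-fold, 1.37 to 3.39). Of 44 other replication genes 11 were called higher, led by Gins3 (8.3 to 48.5 CPM), Gmnn (2.6 to 14.9 CPM) and Orc5 (18.1 to 78.9 CPM). Of 57 other mitosis genes 8 were, led by the kinetochore gene Spc25 (9.3 to 39.4 CPM), Pbk (9.3 to 36.2 CPM) and Nek2 (11.9 to 43.2 CPM). Tfdp2, an E2F partner, went from 20.1 to 125 CPM.

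MEF Oct4 was counted on an Ensembl annotation and every other library on RefSeq names, so annotation and Oct4 cannot be told apart in it. Of its counts 96.92% fell on the 19669 shared names. Against WT MEF its medians were -0.14 and 0.19, with 3 members called higher and 1 lower (14.6% and 14.8% of all genes). Macrophage markers summed to 317 CPM against 95.4 in MEF DR, 9 of 10 being at 5 CPM or more, and fibroblast markers to 13691 against 37823 CPM. Their part was not tested.

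On day 3 of KSM the members were well above the MEF level before any further factor was compared. KSM with DR against MEF DR, 21 of 23 S phase and 16 of 19 M phase members were called higher and none lower, where 18.7% of 11476 genes were called higher and 19.9% lower. The medians were 2.02, 1.44 and 0.07 for S phase, M phase and all measured genes. Klf4, Sox2, c-Myc and the culture of reprogramming all differ between these libraries and cannot be told apart.

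Mcm10 went from 5.2 to 49.7 CPM (9.64-fold higher, 5.07 to 20.6), Cdt1, the licensing factor, from 13.9 to 105 CPM (7.51-fold, 5.05 to 11.6) and Mcm5 from 32.0 to 222 CPM (6.96-fold, 5.35 to 9.2). In M phase Aurka went from 16.0 to 76.6 CPM (4.79-fold, 3.26 to 7.25), Ccnb1 from 34.6 to 149.5 CPM (4.33-fold, 3.33 to 5.7) and Plk1 from 23.2 to 99.4 CPM (4.28-fold, 3.11 to 6.02). Of 44 other replication genes 34 were called higher, and of 56 other mitosis genes 36, Mybl2 from 6.2 to 76.2 CPM among them. The activator E2f2 went from 2.6 to 72.6 CPM and E2f8 from 5.2 to 50.1 CPM. E2f8 and the members were both higher here, whereas in induced ESC E2f8 was higher and the members lower. Any link between E2f8 and the members was not tested in either comparison. Fibroblast markers summed to 2063 CPM in KSM with DR against 37823 in MEF DR, and that difference runs with the one in the members, whose dependence on it was not tested.

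With Oct4 added to KSM the members lay higher still. Against KSM with DR none passed 2-fold, where 4.77% of 10834 genes were called higher and 6.8% lower. All 42 lay above 0, as did 6168 of the 10834 measured genes. The counting interval lay above no change for 15 of 23 S phase and 18 of 19 M phase members, and for 2533 of all 10834 measured genes. The medians were 0.37 and 0.48, against 0.07 for all measured genes. Gins1 (9.6 to 19.1 CPM, 1.98-fold, 1.22 to 3.32), Mcm10 (49.7 to 88.1 CPM, 1.77-fold, 1.43 to 2.2) and Gins2 (23.3 to 40.9 CPM, 1.76-fold, 1.28 to 2.43) led in S phase, all 3 helicase activation genes. Bub1b (82.6 to 150.4 CPM, 1.82-fold, 1.54 to 2.15), Bub1 (45.7 to 78.4 CPM, 1.71-fold, 1.37 to 2.16) and Foxm1 (66.2 to 109 CPM, 1.65-fold, 1.37 to 2.0) led in M phase. Of 56 other mitosis genes 3 were called higher, the separase inhibitor Pttg1 (13.6 to 33.3 CPM) and the kinesins Kif18a (14.8 to 35.7 CPM) and Kif15 (40.9 to 86.8 CPM). Rb1, the retinoblastoma gene, was higher as well (40.1 to 103 CPM). The 3 KSM comparisons share the KSM DR library. Keratinocyte markers summed to 139 (DR), 20.6 (Oct4), 46.5 (c-JunDN) and 99.1 (Jdp2) CPM in the KSM libraries, with Sfn at 78.6, 13.0, 34.7 and 36.7 CPM in that order and Trp63 at 0 in all but the Oct4 library. Fibroblast markers summed to 2063, 1933, 2451 and 2867 CPM in the same order. Their part in these comparisons was not tested.

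With c-JunDN in KSM no member was called, where 1.69% of 10799 genes were called higher and 1.75% lower. The medians were 0.21 and 0.14, against 0.03 for all measured genes. Above 0 lay 21 of 23 S phase and 15 of 19 M phase members, and 5853 of all 10799 measured genes. Cdc6, the helicase loader, was furthest from the control (35.7 to 52.2 CPM, 1.46-fold, 1.12 to 1.92), followed by Ccne1 (100.2 to 138 CPM, 1.38-fold, 1.18 to 1.62) and Ccne2 (33.7 to 46.1 CPM, 1.37-fold, 1.04 to 1.82). In M phase Bub1 (45.7 to 60.6 CPM), Foxm1 (66.2 to 85.9 CPM) and Cenpe, a kinetochore motor (84.6 to 108 CPM), led, each under 1.5-fold.

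With Jdp2 in KSM no member was called either, where 3.13% of 10881 genes were called higher and 1.34% lower. All 19 M phase members lay below KSM with DR, as did 5721 of all 10881 measured genes. All 19 also lay below the control in the separate MEF libraries, where the interval lay below no change for 4. The members of a comparison share 1 pair of libraries and are not replicates. The M phase median was -0.32, against -0.12 in S phase and -0.02 for all measured genes. In KSM the counting interval lay below no change for 8 of the 19 and for 1279 of all measured genes. Plk1 (99.4 to 66.8 CPM, 1.49-fold lower, 1.22 to 1.81), Cdk1 (119 to 82.4 CPM, 1.44-fold, 1.21 to 1.72) and Ccnb1 (149.5 to 105 CPM, 1.42-fold, 1.21 to 1.66) were lowest. In S phase Ccne1 was on the other side (100.2 to 142 CPM, 1.42-fold higher, 1.21 to 1.67), while Prim1 went from 33.3 to 23.7 CPM and Cdt1 from 105 to 82.0 CPM.

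The control library MEF DR itself differed from WT MEF. Of 22 measured S phase members 9 were called lower, as were 2 of 19 M phase members (Top2a and Tpx2), where 10.5% of 11096 genes were called lower and 9.81% higher. The medians were -0.95 and -0.50, against -0.10 for all measured genes. Pole went from 44.7 to 13.4 CPM (3.34-fold lower, 2.26 to 5.14), Mcm10 from 16.3 to 5.2 CPM (3.16-fold, 1.69 to 6.66) and Rrm1 from 280.2 to 109.8 CPM (2.55-fold, 2.22 to 2.94).

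The size of this difference followed transcript length. Lengths were taken from the deposited Ensembl table and have a median of 2218 bases over the members. The 20 measured members at or under that length had a median change of -0.30 with 3 called lower, and the 21 longer ones a median of -0.98 with 8 called lower. Across these 41 genes, which share both libraries, Spearman's rho of change and length was -0.54, and across all 9904 measured genes with a length it was -0.44. Against MEF DR the rho over members was 0.05 for c-Jun, -0.02 for c-JunDN, -0.08 for Jdp2 and -0.06 for Oct4, whereas against WT MEF it ran from -0.62 to -0.50 for the same 4 libraries. Uninduced against WT ESC it was -0.39, induced against WT ESC -0.36, and induced against uninduced ESC -0.02. Across all 10046 measured genes with a length, however, rho was 0.15 in induced against uninduced ESC. Genes at or under the median member length had a median change of -0.28 there, and longer ones 0.06. The exception among the matched comparisons was c-JunDN with KSM, with a rho of 0.49 over 42 members. WT libraries also have the highest depth, and the cause of the length trend was not tested.

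**Figure D5:**
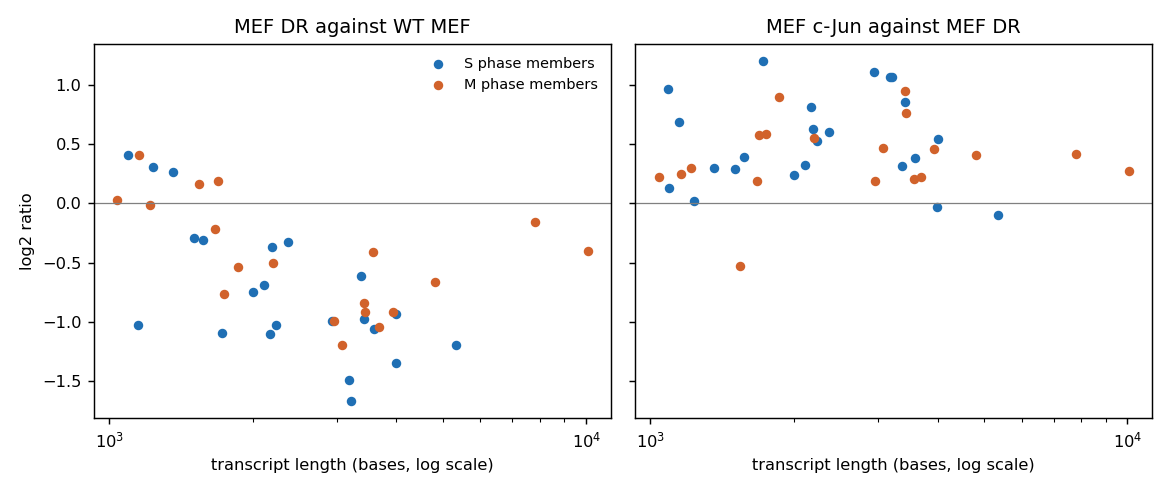
Log2 ratio of each measured member against transcript length in bases (log axis), for MEF DR against WT MEF (left) and MEF c-Jun against MEF DR (right). Blue points are S phase and orange points M phase members, 1 library per group. Longer members lie lower on the left (rho -0.54) and show no such trend on the right (rho 0.05).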

How the data were processed

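RNA was measured in 13 libraries, 1 per group, so groups were compared without replicates and every interval covers counting error only. The expected counts are the authors' RSEM 1.1.21 estimates on mm9, per the submitters' processing notes, and were rounded here to whole numbers. The aligner of the RNA reads is not given in the sources used here. Beside these counts, 12 deposited tables hold a transcript fraction per gene that sums to 1, which was multiplied to TPM. The MEF Oct4 table was deposited with expected counts and TPM on Ensembl genes. Its 27247 IDs with a symbol were joined by name, 1705 through synonyms, leaving 19669 names for TMM factors (edgeR 4.0.16) over all libraries. Depth ran from 1896522 to 21415028 expected counts.

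Log2 ratios of CPM plus 1 were computed here from these deposited counts, with exact conditional binomial 95% intervals. The script was tested on simulated data. The members and lists were chosen with earlier results of these data known. Named are, per comparison, up to 3 S phase and 3 M phase members and up to 3 genes per other list with the largest change, members called where 5 or fewer were, a fixed set for levels, and, of the G1 list, Ccnd1, Ccnd2, Cdkn1a and Cdkn2a in place of the largest changes. A gene of the other replication list that this rule names is not reported here. Members named by role beyond these were chosen after their values were seen. Of the other replication list 1 gene, Ticrr, was not found. Alternatives were the pseudocount, the filter, total-count, DESeq2 1.42.0 and TPM scaling, a 1.5-fold threshold, the genes used for TMM, joining by identical symbol only and WT controls. The chromatin samples were not used here.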

Additional observations from a re-analysis of the deposited data

Results flagged for a closer look

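With MEF DR as the MEF control, c-Jun went with opposite directions of the members in the 2 cell types. The S phase median was -1.45 in ESC and 0.53 in MEF, and the M phase median was -0.95 in ESC and 0.40 in MEF. In ESC 23 of 23 S phase members lay below 0, as did 6018 of 11255 measured genes. In MEF 21 of 23 lay above 0, as did 5796 of 11284 measured genes. Against WT MEF the c-Jun medians were -0.29 and -0.13, against -0.07 for all measured genes. The members were mixed there, with 17 of 42 above 0 and 25 below. The difference between the cell types was not tested, because each group has 1 library, and the comparisons also differ in how c-Jun was introduced.

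c-JunDN gave smaller medians of opposite sign in MEF and in KSM, of which the S phase median in MEF lay near 0. Of 21 measured S phase members in MEF, 9 lay above 0 and 12 below. The median of all measured genes was -0.003 in MEF and 0.03 in KSM. Jun was at 4202 CPM in MEF c-JunDN against 94.4 in MEF DR, and at 378 in KSM with c-JunDN against 73.0 in KSM with DR. The S phase median was -0.029 in MEF and 0.21 in KSM, and the M phase median was -0.24 in MEF and 0.14 in KSM. No member was called in either comparison, and this difference was not tested either.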

How the results depend on the processing

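Of 138 medians recomputed under the alternatives 128 stayed between the median lower and median upper counting bound of the members, and 10 moved. That band has the width of a typical interval of a single gene and is not an interval of the median, so staying within it is a weak check. Of 154 counts of called members 128 stayed within 1.5 times and 26 moved. Of 403 values of named members 378 stayed within the gene's counting interval, 23 moved and 2 reversed. Only changes of at least 2-fold could count as reversed, so smaller changes of sign are among those that stayed or moved. On the TPM scale the ESC medians were -1.08 and -0.56 with 16 members lower, and members higher numbered 2 with c-Jun and 17 with Oct4 in MEF, while 2 were lower with Jdp2 in MEF. With WT MEF as control, c-Jun gave medians of -0.29 and -0.13 with 2 members lower and 0 higher, c-JunDN -0.997 and -0.85 with 17 lower, Jdp2 -0.88 and -0.96 with 18 lower, and Oct4 -0.14 and 0.19 with 1 lower and 3 higher. The 2 reversed values, both with that control, were Pole (c-Jun, -0.61) and Mcm10 (Oct4, -0.33). At 1.5-fold, members higher were 13 for c-Jun, 2 for c-JunDN, 2 for Jdp2 and 26 for Oct4 in MEF and 12 for Oct4 with KSM, and members lower were 4 for c-JunDN and 8 for Jdp2 in MEF. A pseudocount of 5 left 1 member higher for c-Jun, 4 for Oct4 and 0 lower for Jdp2 in MEF, and a 20 CPM filter left 2 higher for c-Jun and 0 lower for Jdp2. For Jdp2 in MEF, 1 member was higher with a pseudocount of 0.5, total-count scaling or DESeq2 size factors, and 2 were lower without a filter. Shares of all genes called were computed only for the WT controls among these alternatives. The other counts, those at 1.5-fold and on the TPM scale included, therefore have no background beside them. Whether they are particular to the members was not tested. The threshold and the filter act by construction; otherwise the cause was not tested. No paired analysis was possible because each group has 1 library, and no library could be left out for the same reason. Low counts in MEF limit genes such as Gins1 and Mcm10.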

Other observations

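The G1 regulators were followed over the same libraries. Ccnd1, cyclin D1, was at 146 CPM in WT ESC, 298 in uninduced ESC and 24.9 in induced ESC. In MEF it was at 664 (WT), 305 (DR), 125 (c-Jun), 260.1 (Jdp2), 229 (c-JunDN) and 736 (Oct4), and in KSM at 1153 (DR), 1387 (Jdp2), 951 (c-JunDN) and 542 (Oct4). It was lower with c-Jun in both cell types, against either control. The members went in opposite directions with MEF DR as control. With WT MEF as control they were mixed in MEF c-Jun, with 17 of 42 above 0 and 25 below. Ccnd2, cyclin D2, set ESC apart from the rest, with 12.4 to 26.5 CPM in ESC, 617 to 2896 in MEF and 761 to 869 in KSM.

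Cdkn1a, the p21 gene, was at 364, 155 and 469 CPM in WT, uninduced and induced ESC, and its relation to the member levels was not tested. It was at 451 to 869 CPM in MEF and at 578 to 1532 in KSM, highest with Jdp2. Cdkn2a was at 32.2 CPM in WT, 15.8 in uninduced and 153 in induced ESC, 17.8 to 59.7 in MEF and 68.7 to 82.6 in KSM.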
